A study of Mus musculus with 4 samples.

Results

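The MHC class II presentation genes were taken as 9 genes, and MIZ-1 ChIP-seq peaks at each of them were described in splenic B cells, isolated as B220+ splenocytes. The set held the classical chains H2-Aa, H2-Ab1 and H2-Eb1, the peptide editor chains H2-DMa and H2-DMb1, the editor inhibitor chains H2-Oa and H2-Ob, the invariant chain Cd74, and the coactivator Ciita. They were chosen by name, and they are 9 of the 21951 protein-coding genes and of the 55450 annotated genes against which the peak lists were read. A peak belonged to a gene when it touched the promoter window, from 2000 bp before to 1000 bp after any transcript start in the GENCODE basic annotation of mm10, or the gene interval itself.

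MIZ-1 is a zinc finger transcription factor and a known partner of MYC. Its POZ domain is the part through which it pairs with itself and recruits coactivators. The chromatin was that of wild-type animals, here MIZ-1WT, or of MB1-Cre x Miz-1floxPOZ animals, here MIZ-1DPOZ. A value given as in MIZ-1WT or in MIZ-1DPOZ is from the peak list of that library. In the second line Cre is driven by the Mb1 gene, which B lineage cells use, and the shortened protein lacks the POZ domain but keeps its zinc fingers. All lines were on a C57BL/6 background and the animals were 40 to 70 days old. Whether the wild-type mice carried Cre is not given in the sources used here. Each genotype gave 1 ChIP library, made with the Miz-1 H-190 antibody, and 1 input library. With 1 library a genotype there was no replicate and no test between genotypes, and every difference below is one between these libraries. The B220+ gate holds follicular, marginal zone and other B cells, so a different mix of cells and different binding per cell cannot be told apart. Peak lists carry no expression, so neither the loss of the POZ domain nor the B cell markers could be checked in them.

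MHC class II molecules carry peptides from the endosome to the surface of antigen-presenting cells, where helper T cells read them, and B cells use them to obtain T cell help. An alpha and a beta chain assemble with the invariant chain, which fills the groove until proteases trim it. H2-DM then removes the remaining fragment and favours stable peptides, and H2-O, which B cells make, holds H2-DM back. Transcription of the chain genes depends on a compact promoter unit with an X box and a Y box. The X box is bound by the RFX complex and CREB1, and the Y box by NF-Y. CIITA, the product of Ciita, does not bind DNA itself and joins these factors.

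The promoter unit is shown first, although not all 9 genes held a match to it. The stretches below are the 200 bases before the most upstream basic start, read on the strand of the gene from mm10. Capitals mark GCAAC, taken here as the X box half-site, and CCAAT, the Y box core, or their reverse complements. H2-Aa lies on the minus strand and its stretch is chr17:34287824-34288023. H2-Ob lies on the plus strand at chr17:34238703-34238902, and H2-Ab1 on the plus strand at chr17:34263009-34263208.
H2-Aa: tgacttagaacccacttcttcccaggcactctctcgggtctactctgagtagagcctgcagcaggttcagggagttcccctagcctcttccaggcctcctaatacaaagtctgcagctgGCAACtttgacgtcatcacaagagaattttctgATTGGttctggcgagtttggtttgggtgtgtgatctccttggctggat
H2-Ob: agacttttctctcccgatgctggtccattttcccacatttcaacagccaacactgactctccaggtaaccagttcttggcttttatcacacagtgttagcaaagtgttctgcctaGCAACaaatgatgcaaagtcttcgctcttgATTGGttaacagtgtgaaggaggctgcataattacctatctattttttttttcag
H2-Ab1: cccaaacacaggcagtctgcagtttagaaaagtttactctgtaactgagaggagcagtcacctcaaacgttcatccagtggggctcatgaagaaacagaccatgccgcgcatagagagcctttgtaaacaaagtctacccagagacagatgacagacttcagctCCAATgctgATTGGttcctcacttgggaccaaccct

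H2-Aa, H2-Ob and H2-Eb1 held the X box half-site followed by ATTGG, the Y box core on the other strand, with 20 to 45 bases between the first letters of each. These were 3 of the 9 genes, and 0.515% of 21938 protein-coding genes held such a pair in the same 200 bases. H2-Ab1 held 2 copies of the Y box core and no match to the X box letters. Cd74 and Ciita held neither before their most upstream starts. Over all 9 genes the Y box core was present in 4, against 31.8% of promoters, and the X box half-site in 6, against 24.7%. H2-DMa held no Y box core before its most upstream start but held 2 before its start at position 34135628. Of the other letters searched on both strands, the E-box CACGTG, which MYC and its partners recognise, was present in 0 of the 9 genes (5.73% of promoters). The GC box GGGCGG was present only in Cd74 (39.3% of promoters). The MIZ-1 core ATCGGTAAT was present in 0 of the 9 genes and in 3 of all promoters. A match is a run of letters and not a shown binding site.

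No class II presentation gene had a promoter peak in MIZ-1WT and 1 had one in MIZ-1DPOZ, that of Ciita. Among all protein-coding genes the share with a promoter peak was 30.9% in MIZ-1WT and 48.7% in MIZ-1DPOZ, and the members' counts, 0 of 9 and 1 of 9, were below both. With the longer list held to as many peaks as the shorter one, the MIZ-1DPOZ share was 25.3%, below that of MIZ-1WT, and Ciita no longer had a promoter peak. No member had a promoter peak in both lists (26.6% of protein-coding genes did) and 8 had one in neither (47.1%). The Ciita summit lay 1123 bp before the most upstream start, and 500 bp to each side of a start no member promoter held a peak in either list. No peak of either list touched the windows of the Ciita starts at positions 10488279, 10489781 and 10489783. Which Ciita start these cells use was not tested.

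The promoters of these genes are poor in CpG, and in both lists the share of genes with a promoter peak was higher the more CpG the promoter held. Members held from 7 to 76 CpG dinucleotides within 500 bp of a start, with a median of 12, against a median of 47 over protein-coding genes. When protein-coding genes were split into quartiles of this count, 6 members fell in the lowest quartile, with 0 to 14 CpG. In that quartile a promoter peak was present for 2.85% of genes in MIZ-1WT and 8.89% in MIZ-1DPOZ. H2-Ab1 (18 CpG) and Ciita (24 CpG) fell in the next quartile, where the shares were 13.8% and 35.8%. No member fell in the third quartile, with shares of 37.6% and 62.7%. In the highest quartile, from 76 CpG upward, the shares were 70.8% and 89.0%.

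H2-DMa was the only member in the highest CpG quartile and had no promoter peak in either list. Its 76 CpG belong to the start at position 34122832, where the opposite gene Brd2 also begins. Its other basic starts, at positions 34135628 and 34135654, held 34 and 33 CpG. Adding up, for each of the 9 genes, the share of its own quartile gives 1.16 genes for the MIZ-1WT list and 2.14 genes for the MIZ-1DPOZ list. The observed counts were 0 and 1. H2-DMa gave the largest part of each sum, since the shares of its quartile were 70.8% and 89.0%. That quartile was set by its start with the most CpG. The 34 or 33 CpG of its other starts lie in the quartile of 15 to 47 CpG, with shares of 13.8% and 35.8%. These sums are a description, since neighbouring genes and both lists share chromatin. The CpG-rich stretch before the upstream H2-DMa start (plus strand, chr17:34122632-34122831) is printed because it is rich in CpG and still held no peak. Capitals mark CpG, of which it holds 23.
H2-DMa: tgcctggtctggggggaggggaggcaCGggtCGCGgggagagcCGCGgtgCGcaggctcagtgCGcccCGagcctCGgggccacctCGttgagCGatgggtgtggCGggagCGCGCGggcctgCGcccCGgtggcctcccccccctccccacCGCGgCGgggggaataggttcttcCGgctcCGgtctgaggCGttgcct

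**Figure D1:**
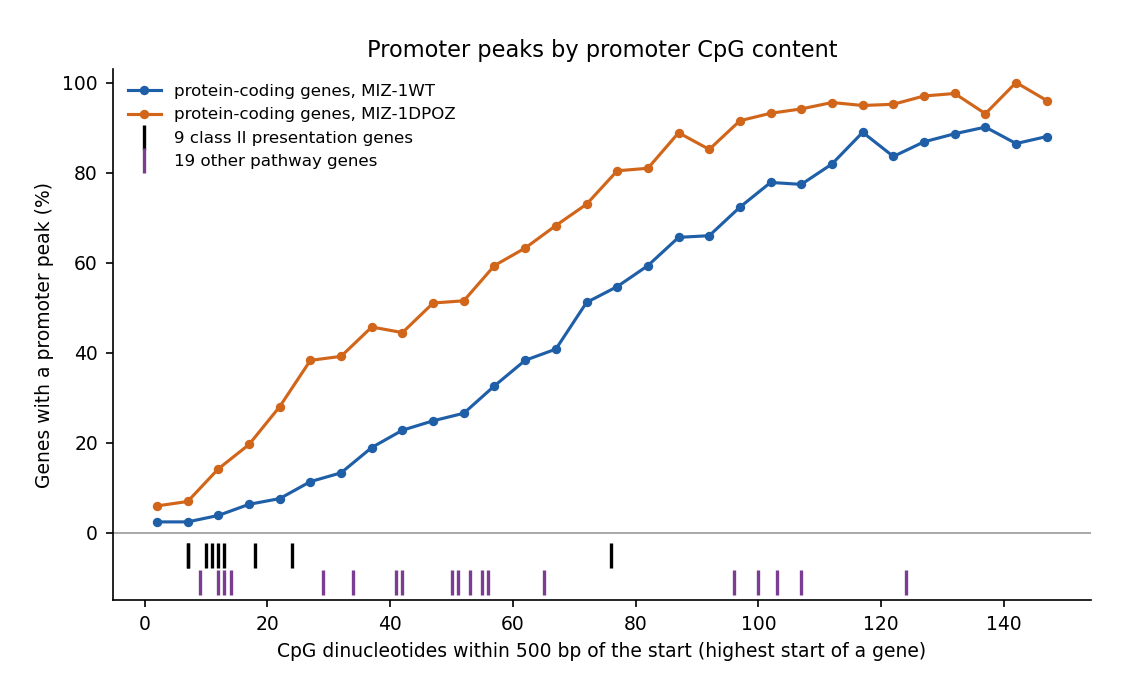
Share of protein-coding genes with a promoter peak (y axis, percent) by the number of CpG dinucleotides within 500 bp of the start (x axis, bins of 5 with at least 50 genes), for the MIZ-1WT list (blue) and the MIZ-1DPOZ list (orange). Ticks under the curves give the 9 class II presentation genes (black) and 19 other pathway genes (purple): 8 of the black ticks lie at 24 CpG or fewer, where both curves are low, and H2-DMa lies at 76.

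Outside the promoter windows, peaks were present inside several of the genes. A peak lay in the gene interval of 5 members in MIZ-1WT, where 42.0% of protein-coding genes had one, and of 4 members in MIZ-1DPOZ, where 62.8% did. The genes with such a peak in MIZ-1WT were H2-Ab1, H2-Eb1, H2-DMa, H2-Ob and Ciita, with 1 peak each. In MIZ-1DPOZ they were H2-Ab1 with 2 peaks, Ciita with 3, and H2-DMb1 and H2-Ob with 1 each. H2-Aa, H2-Oa and Cd74 had no peak in either list by either part of the rule. Over the 130 kb of the 9 gene intervals this came to 3.85 peaks per 100 kb in MIZ-1WT and 5.39 in MIZ-1DPOZ. Over all protein-coding gene intervals it came to 1.53 and 3.39. The member rates rest on only 5 and 7 peaks, and a difference from the rates over all genes was not tested. With equal numbers of peaks in the lists, 0 members had a gene body peak in MIZ-1DPOZ. The shares and rates over all protein-coding genes also count gene body peaks in promoter windows, and the members' counts hold none in their own windows. Of 16384 such peaks in MIZ-1WT 9603 lay outside promoters, and of 36457 in MIZ-1DPOZ 24639 did.

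**Figure D2:**
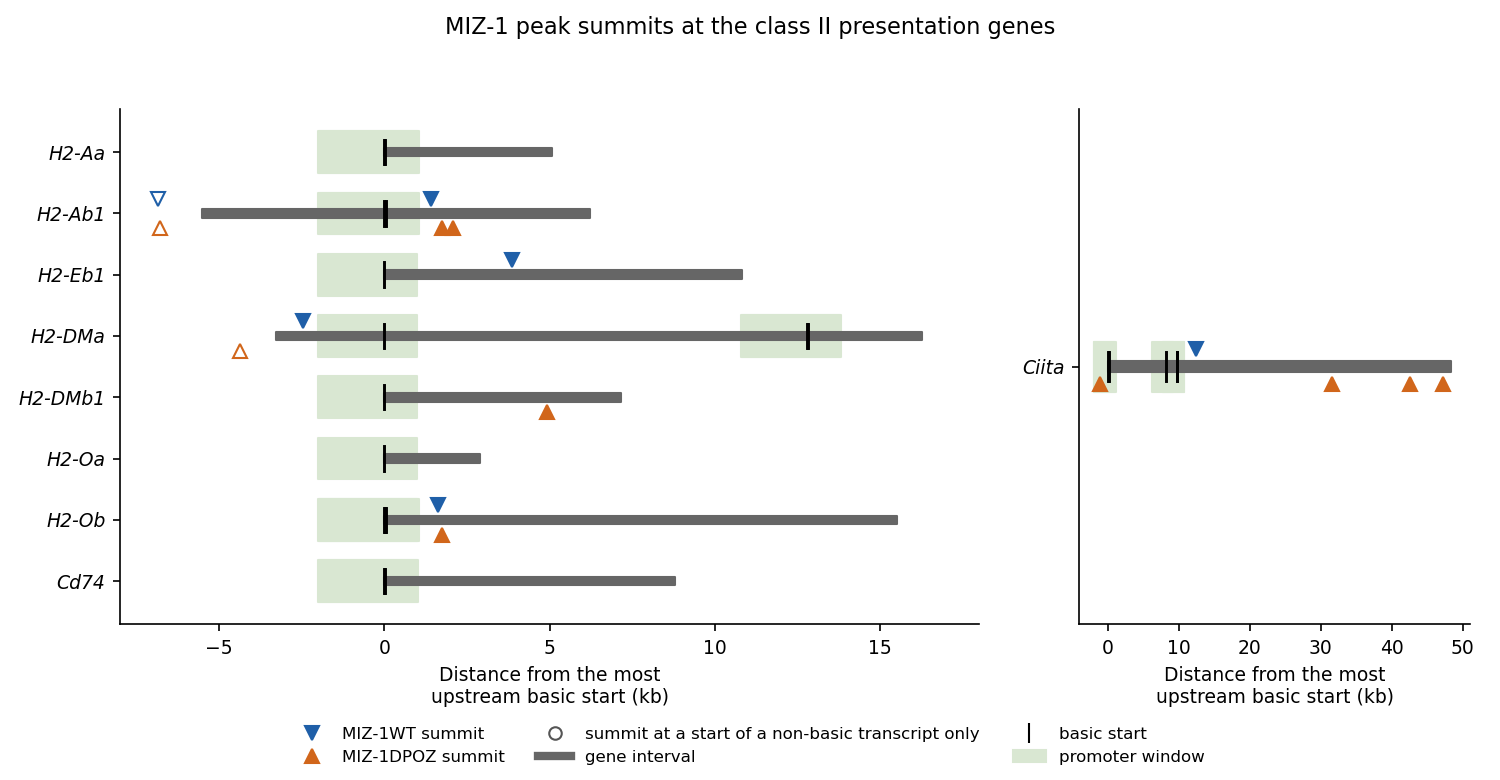
Positions of MIZ-1WT summits (blue, pointing down) and MIZ-1DPOZ summits (orange, pointing up) along the 9 genes, as the distance in kb from the most upstream basic start in the direction of transcription. Grey bars are gene intervals, black ticks basic starts and green boxes promoter windows, and only 1 filled symbol, at Ciita, lies in a green box. Open symbols are summits outside the gene that lie in the window of a start found only among non-basic transcripts.

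The member peaks rested on few fragments in both lists, and by their median only those of MIZ-1DPOZ lay below their list. The fragments over each summit (the pileup) and the local background were recovered from the deposited scores, and a pileup of k fragments carries a counting error of about its square root. The 5 MIZ-1WT peaks held 7 to 15 fragments with a median of 9, the median of that whole list. The 8 MIZ-1DPOZ peaks held 8 to 13 fragments with a median of 9.50, under that list's median of 12. Their deposited −log10 q lay between 2.48 and 5.37 in MIZ-1WT and between 2.38 and 5.92 in MIZ-1DPOZ. As percentiles within their own lists these scores ran from 18.6 to 79.1 and from 3.92 to 54.9. At the most frequent background, the lowest pileup in the lists was 5 fragments for MIZ-1WT and 6 for MIZ-1DPOZ, so weaker enrichment than this at a member promoter would not have been listed. The MIZ-1DPOZ library was 1.34 times deeper and its list longer, 78357 peaks against 34209, and each member was therefore read against its own list.

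**Figure D3:**
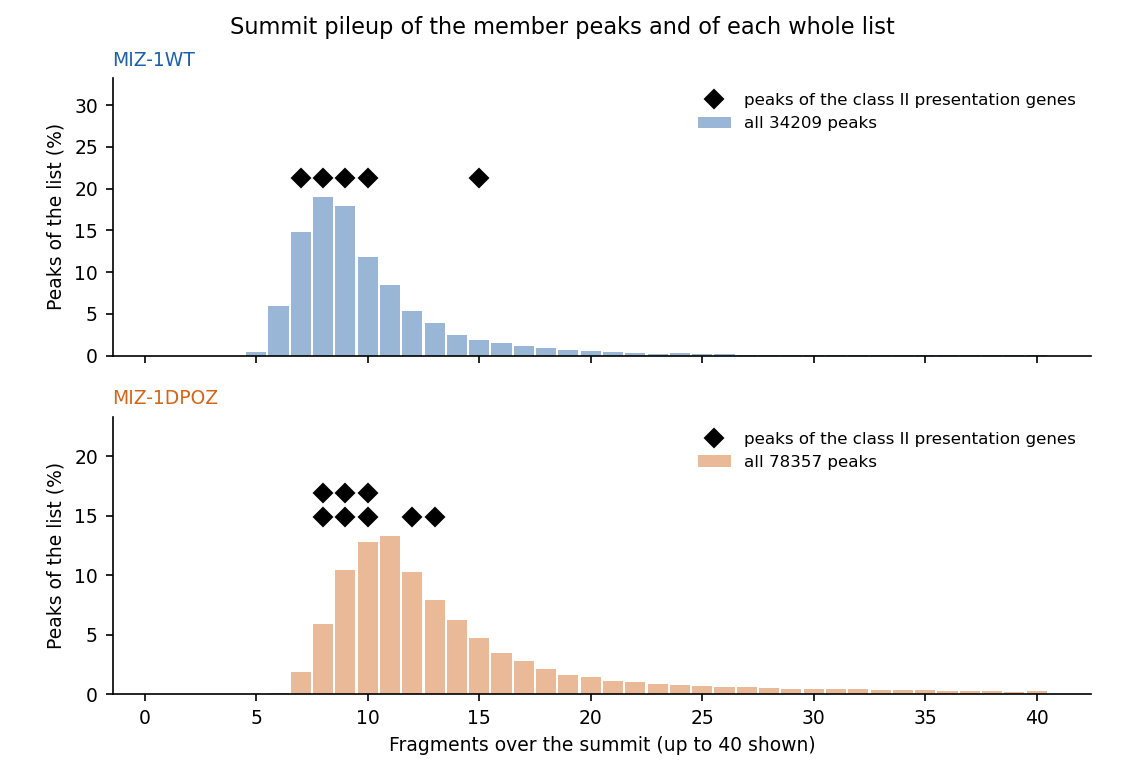
Fragments over the summit (x axis, up to 40) for all peaks of each list (bars, percent of the list) and for the peaks of the class II presentation genes (black diamonds, placed above the bars only for visibility). Member peaks lie at 7 to 15 fragments in MIZ-1WT and at 8 to 13 in MIZ-1DPOZ.

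Among the classical chains, H2-Ab1 and H2-Eb1 had peaks around exon 2, which encodes the peptide-binding domain of the beta chain, and H2-Aa had none. At H2-Eb1 (chr17:34305867-34316674, plus strand) the MIZ-1WT list held a peak at chr17:34309667-34309828, with its summit in exon 2 and 3862 bp after the start. It rested on 9 fragments (95% Poisson interval 4.12 to 17.1) with a fold enrichment of 5.38. The MIZ-1DPOZ list held no peak in this gene, and its nearest summit lay 40580 bp before the start.

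At H2-Ab1 (chr17:34257689-34269419, plus strand) the lists held 3 peaks within 658 bp of each other and none of them overlapped. The MIZ-1WT peak at chr17:34264538-34264685 had its summit in intron 1, 132 bp before exon 2, with 7 fragments (2.81 to 14.4) and a fold of 4.27. The first MIZ-1DPOZ peak, chr17:34264901-34265073, had its summit inside exon 2 with 8 fragments (3.45 to 15.8) and a fold of 3.62. The second, chr17:34265125-34265313, had its summit in intron 2, 254 bp after exon 2, with 9 fragments (4.12 to 17.1) and a fold of 4.02. Both lists thus held a summit in or within 254 bp of exon 2. The nearest summits of the 2 lists were 322 bp apart, and the intervals of their pileups overlap. For H2-Aa (chr17:34282744-34287823, minus strand) the nearest summits were 21906 bp before the start in MIZ-1WT and 22504 bp after it, inside H2-Ab1, in MIZ-1DPOZ.

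The exon 2 summits of H2-Eb1 and H2-Ab1 came from different lists and lay on closely related sequence, at places 52 bases apart when the genes are laid on each other. The beta chain genes are related by duplication. Laid on each other without gaps, the windows around the summits matched at 92.6% of 149 bases. The best stretch of 60 bases is printed for both, on the plus strand, at chr17:34309718-34309777 for H2-Eb1 and chr17:34264888-34264947 for H2-Ab1, and capitals mark the 2 bases that differ. It holds the H2-Eb1 summit, at its base 12, while the H2-Ab1 summit lies 4 bases after its end.
H2-Eb1: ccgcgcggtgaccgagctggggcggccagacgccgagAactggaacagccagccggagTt
H2-Ab1: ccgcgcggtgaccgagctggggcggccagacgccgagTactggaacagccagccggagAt

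Each 50-base window around both summits occurred once in the genome, but those within the printed 60 bases differ from the other gene by 1 or 2 bases. Differences in the other windows were not counted. How the aligner placed reads between these 2 exons is not given in the sources used here, so the gene to which each of these peaks belongs is uncertain. The MIZ-1WT summit of H2-Ab1 is printed as well (plus strand, chr17:34264579-34264679), with its 15 CpG in capitals, because it had the highest CpG count of the member summits, 30 within 100 bp.
H2-Ab1, MIZ-1WT summit: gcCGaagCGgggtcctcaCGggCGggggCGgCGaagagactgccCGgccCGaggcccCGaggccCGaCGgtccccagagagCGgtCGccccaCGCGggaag

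The peptide editor chains had peaks in different lists. H2-DMa (chr17:34119541-34139101, plus strand) had 1 MIZ-1WT peak, chr17:34120285-34120458, with 15 fragments (8.4 to 24.7) and a fold of 5.16. This was the highest pileup of the 13 member peaks and stood over a local background of 2.10 fragments, above the most frequent value of 0.860. The summit lay 2464 bp before the nearest basic start of H2-DMa, in a part of the gene interval that only non-basic transcripts cover, and inside Brd2, a bromodomain gene read from the opposite strand, in whose promoter window the peak also fell. The start nearest to it in the basic annotation was that of CR974462.3, 200 bp away. In MIZ-1DPOZ no peak touched H2-DMa, and the nearest summit, with 15 fragments at chr17:34118357-34118546, lay 13 bp from a Brd2 start and 1892 bp from the MIZ-1WT summit. Both lists thus held a peak inside Brd2, at different places. The stretch around the MIZ-1WT summit (plus strand, chr17:34120318-34120418) holds 11 CpG, in capitals.
H2-DMa, MIZ-1WT summit: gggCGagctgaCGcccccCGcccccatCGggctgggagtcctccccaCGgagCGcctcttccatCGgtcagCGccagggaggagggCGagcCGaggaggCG

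H2-DMb1 (chr17:34153072-34160230, plus strand) had no MIZ-1WT peak, and its nearest MIZ-1WT summit was 32704 bp away. The MIZ-1DPOZ list held 1 peak in intron 3, with 10 fragments (4.8 to 18.4) and a fold of 4.68.

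Of the editor inhibitor chains, H2-Ob held the only site that both lists shared and H2-Oa held none. In H2-Ob (chr17:34238903-34254414, plus strand) a MIZ-1WT peak at chr17:34240498-34240645 and a MIZ-1DPOZ peak at chr17:34240542-34240756 overlapped by 104 bp in intron 1. Their summits lay 1581 and 1698 bp after the start and 117 bp apart. The MIZ-1WT summit held 8 fragments (3.45 to 15.8, fold 4.84) and the MIZ-1DPOZ summit 10 fragments (4.8 to 18.4, fold 4.68). After division by the depth ratio, the MIZ-1DPOZ pileup was 0.932 times that of MIZ-1WT, with an exact 95% binomial interval of 0.331 to 2.72 that covers counting error only. The 2 libraries were thus not distinguishable at this site at this depth. Among gene body peaks of all protein-coding genes, 58.3% of MIZ-1WT peaks and 25.4% of MIZ-1DPOZ peaks overlapped the other list, and for the member peaks inside genes it was 1 of 5 and 1 of 7. Those shares also count peaks in promoter windows, while no member peak inside a gene lay in a promoter window of that gene. The counts and shares are therefore not fully alike. The union of the H2-Ob peaks (plus strand, chr17:34240498-34240756) is printed with the shared bases in capitals, and it is a run of G and A with few C.
H2-Ob, both peaks: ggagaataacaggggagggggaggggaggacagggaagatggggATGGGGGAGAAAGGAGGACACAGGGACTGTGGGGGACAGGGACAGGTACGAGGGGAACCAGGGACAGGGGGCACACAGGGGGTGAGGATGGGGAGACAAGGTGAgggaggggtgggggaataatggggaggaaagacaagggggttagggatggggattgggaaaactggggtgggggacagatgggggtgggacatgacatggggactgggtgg

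H2-Oa (chr17:34092340-34095234, plus strand), the partner of H2-Ob in the inhibitor, had no peak. Its nearest summits lay 28028 bp after the start in MIZ-1WT, which is the Brd2 peak named above, and 16287 bp before the start in MIZ-1DPOZ, next to H2-Pb. Cd74 (chr18:60803848-60812652, plus strand), which chaperones the new chains, had no peak either. Its nearest MIZ-1WT summit lay 4357 bp before the start with 8 fragments, and its nearest MIZ-1DPOZ summit 12693 bp before the start with 23 fragments. The promoter windows of the 9 genes were readable: between 85.8% (H2-DMb1) and 100% (H2-Ab1) of their 50-base windows occurred once in the genome.

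Ciita, the gene on which the others depend, held the most peaks, 1 in MIZ-1WT and 4 in MIZ-1DPOZ, and none of them overlapped between lists. It is also the longest of the 9 genes, at 48.4 kb (chr16:10480059-10528418, plus strand), with 5 basic starts. The MIZ-1WT peak, chr16:10492421-10492592, lay in intron 1 of the longest coding transcript, 2709 bp after the nearest start, with 10 fragments (4.8 to 18.4) and a fold of 5.91, the highest fold of the member peaks, on a repeat with many copies in the genome. The MIZ-1DPOZ promoter peak, chr16:10478894-10479157, held 9 fragments (4.12 to 17.1) with a fold of 4.26 and a −log10 q of 3.37. That score stood at percentile 18.1 of its list. The next MIZ-1WT summit to it was 13556 bp away.

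The other MIZ-1DPOZ peaks of Ciita lay deep in the gene. The peak at chr16:10511520-10511734 had its summit in exon 10, which is coding, with 8 fragments (3.45 to 15.8) and a fold of 3.83. The peak at chr16:10522485-10522677 lay in intron 15 with 13 fragments (6.92 to 22.2) and a fold of 5.30. The peak at chr16:10527148-10527338 lay near the 3′ end with 12 fragments (6.2 to 21.0) and a fold of 5.19. For these last 2 the nearest start of any gene was that of Dexi, the neighbour read towards Ciita, at 20423 and 15791 bp. The stretches at the MIZ-1WT summit (plus strand, chr16:10492442-10492542) and at the MIZ-1DPOZ promoter summit (plus strand, chr16:10478886-10478986) are both purine runs with 0 CpG.
Ciita, MIZ-1WT summit: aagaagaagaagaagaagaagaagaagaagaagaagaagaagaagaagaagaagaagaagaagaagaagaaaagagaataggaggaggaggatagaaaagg
Ciita, MIZ-1DPOZ promoter summit: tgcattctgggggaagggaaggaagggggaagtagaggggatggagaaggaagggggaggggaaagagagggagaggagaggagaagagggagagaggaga

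The member summits fell mostly into 2 kinds, CpG-rich and purine-rich. The limits used to count them, at least 10 CpG or at least 70% purines on 1 strand in the summit window, were set after the sequences had been read. By these limits 3 of 5 MIZ-1WT summits (H2-Ab1, H2-Eb1 and H2-DMa) and 2 of 8 MIZ-1DPOZ summits (both of H2-Ab1) were CpG-rich. A further 2 of 5 MIZ-1WT summits (H2-Ob and Ciita) and 4 of 8 MIZ-1DPOZ summits (H2-DMb1, H2-Ob, the Ciita promoter and Ciita intron 15) were purine-rich. Their purine share ran from 73.6% at H2-Ob in MIZ-1WT to 90.5% at Ciita intron 15. The exon 10 and 3′ end peaks of Ciita, with 4 and 3 CpG, were neither. Over all protein-coding genes, promoter peaks were CpG-rich in 92.3% of cases in MIZ-1WT and 84.4% in MIZ-1DPOZ, and purine-rich in 2.39% and 2.95%. Gene body peaks outside promoters were CpG-rich in 32.5% and 25.7% and purine-rich in 15.5% and 15.1%.

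The only promoter peak of the set, at Ciita, was therefore of the kind found at few promoters, with 87.1% purines, 0 CpG and 84.6% of its bases masked as repeats. Within 100 bp of the 13 summits there was no MIZ-1 core and no X box half-site. A GC box was present at 4 of the CpG-rich summits, an E-box at the MIZ-1WT summit of H2-Ob, and a Y box core at the MIZ-1DPOZ summit of H2-Ob. Over gene body peaks outside promoters of all protein-coding genes, the GC box was present in 16.5% (MIZ-1WT) and 16.6% (MIZ-1DPOZ). The E-box was present in 3.99% and 4.08%, and the Y box core in 25.7% and 21.5%. The X box half-site was present in 15.8% and 16.8%. The MIZ-1 core was present in 0% of these peaks in both lists, so its absence is not particular to the members. By the median of its 50-base windows each of the 13 summits was single-copy, and at 11 of them every window occurred once. At the MIZ-1WT summit of Ciita, with 88.1% of its bases masked as repeats, at least one 50-base window occurred 118374 times in the genome. The MIZ-1DPOZ summit of H2-DMb1 also held a repeated window. The part of repeated sequence in these peaks was not tested.

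**Figure D4:**
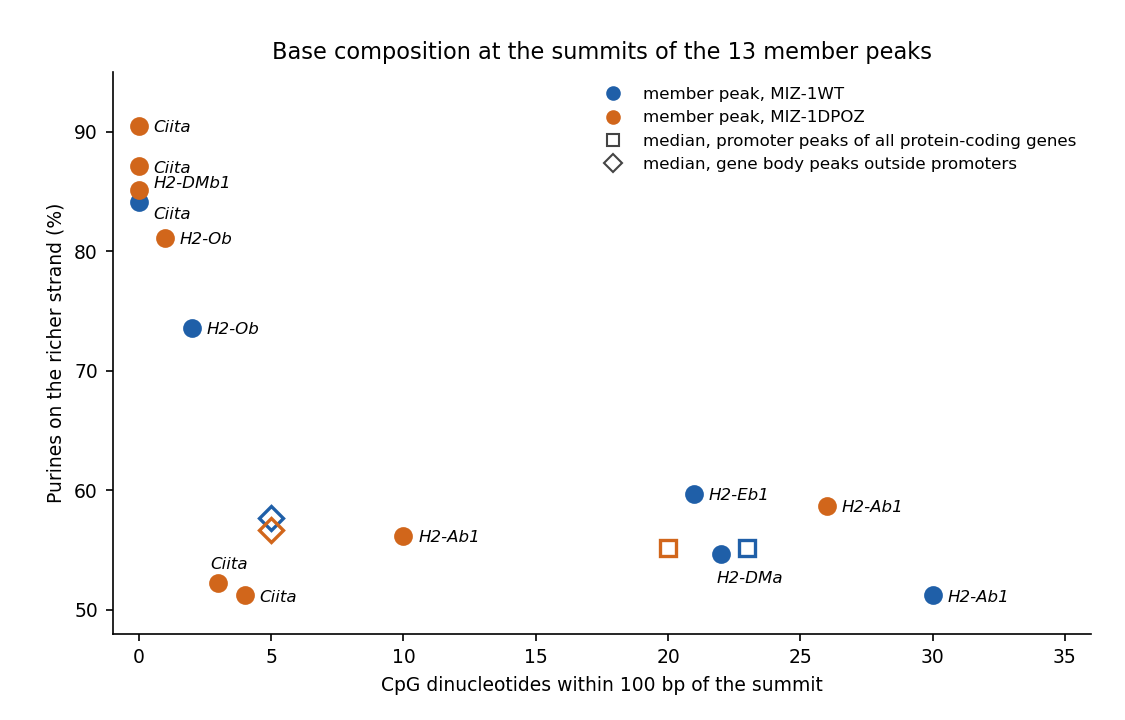
CpG dinucleotides within 100 bp of each summit (x axis) against the percent of purines on the strand that holds more of them (y axis) for the 13 member peaks of the MIZ-1WT (blue) and MIZ-1DPOZ (orange) lists, with the medians of promoter peaks (open squares) and of gene body peaks outside promoters (open diamonds) of all protein-coding genes. The H2-Ab1, H2-Eb1 and H2-DMa summits lie at 10 to 30 CpG, and the H2-Ob, H2-DMb1 and 3 of the Ciita summits at 2 CpG or fewer and 73.6% purines or more.

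The count at promoters depended on which transcript starts were used. The basic annotation gave the 9 genes 20 starts, and the comprehensive one, which adds short and retained-intron transcripts, gave them 47. With those starts 4 members had a promoter peak in each list and 3 had one in both, while the shares over protein-coding genes moved only to 33.2% and 52.4%. In MIZ-1WT the 4 were H2-Ab1, H2-Eb1, H2-DMa and H2-Ob. In MIZ-1DPOZ they were H2-Ab1, H2-DMa, H2-Ob and Ciita. For H2-Ob these were the shared intron peaks, 491 and 608 bp after the start of a processed transcript, and for H2-Eb1 the exon 2 peak, 154 bp after the start of a retained-intron transcript. For H2-DMa they were the Brd2 peaks, 780 bp after and 1065 bp before non-basic starts.

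For H2-Ab1 the added starts brought in a site that the rule had left out. A MIZ-1WT peak at chr17:34256267-34256414 with 9 fragments and a MIZ-1DPOZ peak at chr17:34256276-34256515 with 13 fragments overlapped by 139 bp. Their summits lay 6849 and 6781 bp before the nearest basic start of H2-Ab1, and 1329 and 1261 bp before a start used by a processed transcript only. After depth scaling, MIZ-1DPOZ held 1.08 times the pileup of MIZ-1WT (exact 95% interval 0.426 to 2.86). With a fold of 5.96 and a −log10 q of 6.90 the MIZ-1DPOZ peak scored above each of the 8 MIZ-1DPOZ member peaks. Whether any of these non-basic starts is used in B220+ cells cannot be read from peaks.

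The class II region of chromosome 17, from H2-Oa to the end of H2-Ea, holds 7 of the 9 genes and was read as a whole. In these 252 kb the MIZ-1WT list held 6 summits, or 23.8 per Mb against 14.4 over the chromosome, and the MIZ-1DPOZ list held 16, or 63.4 per Mb against 33.4. These densities rest on few summits, the chromosome values were not matched for gene or CpG content, and the difference was not tested. Of the summits in the region, 4 in each list belonged to members by the rule. In each list 3 of the peaks overlapped a peak of the other list: the H2-Ob peak, the one upstream of H2-Ab1, and one inside Tap2. Tap2 encodes a peptide transporter subunit of the class I pathway. The pair inside Tap2 had its summits 117 bp before (MIZ-1WT) and 31 bp after (MIZ-1DPOZ) the start of Gm15821, the start nearest to them. The tallest peak of the region was a MIZ-1DPOZ peak with 31 fragments and a fold of 8.38 at chr17:34220458-34220729, between Tap2 and H2-Ob, with no MIZ-1WT peak there. A further 2 MIZ-1DPOZ peaks before H2-Ob, with 25 and 18 fragments, lay 12018 and 10778 bp before its start and had no MIZ-1WT partner either. No member gene held a peak of more than 15 fragments.

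**Figure D5:**
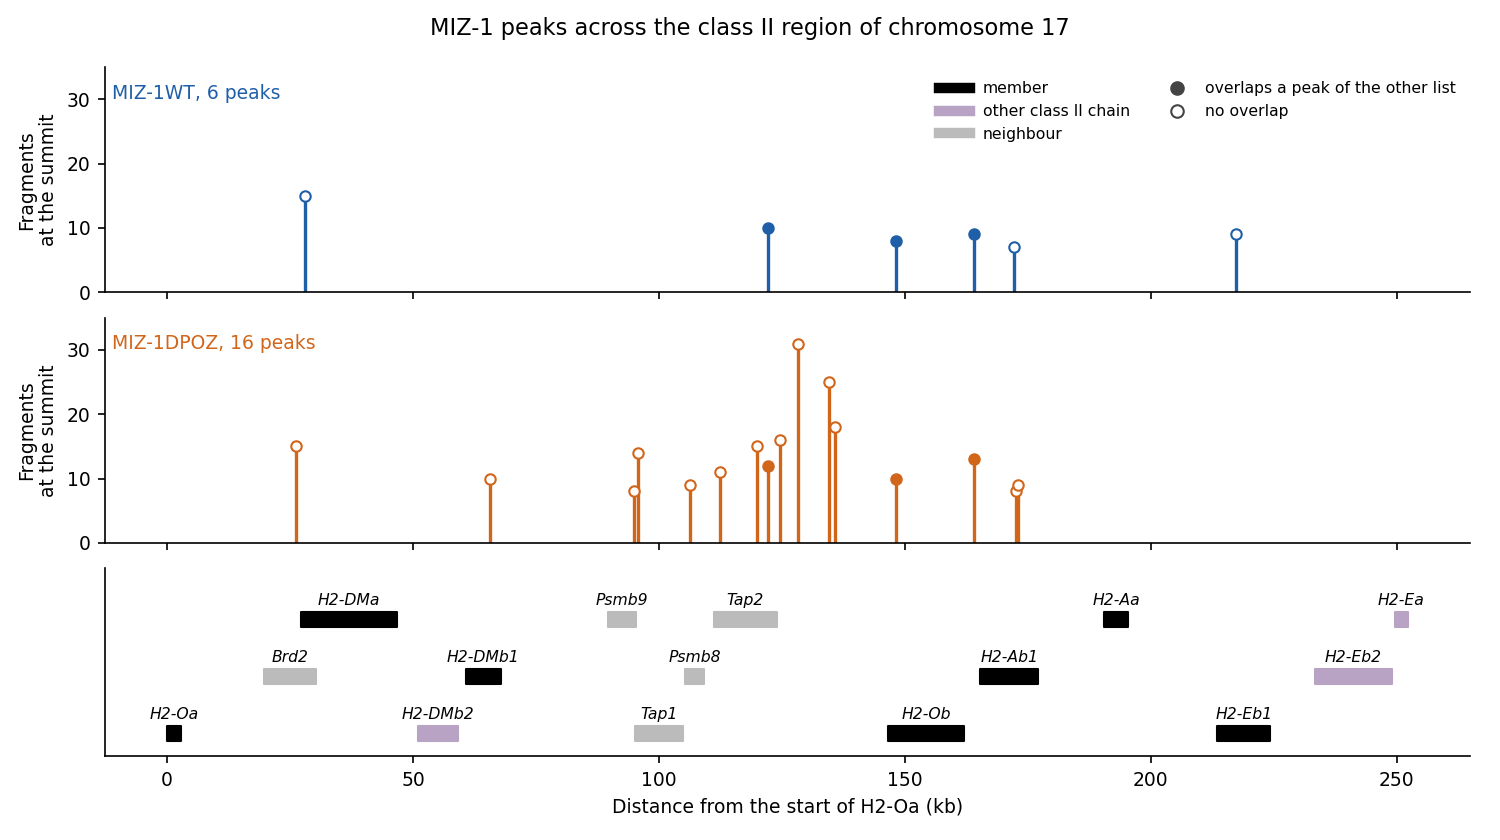
Fragments over the summit (y axis) of the 6 MIZ-1WT peaks (blue) and 16 MIZ-1DPOZ peaks (orange) across the class II region, by distance in kb from the start of H2-Oa (x axis), with the genes below (black, class II presentation genes; purple, other class II chains; grey, neighbours). Filled circles overlap a peak of the other list. The tallest MIZ-1DPOZ peaks, with 25 and 31 fragments, lie between Tap2 and H2-Ob, outside the black genes.

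The neighbours that share this region but serve the class I pathway or other tasks were counted separately. Of Tap1, Tap2, Psmb8, Psmb9 and Brd2, 1 had a promoter peak in MIZ-1WT (Brd2) and 4 in MIZ-1DPOZ (Tap1, Psmb8, Psmb9 and Brd2). Over all protein-coding genes the shares were 30.9% and 48.7%. Tap1 and Psmb9, a transporter subunit and an immunoproteasome subunit that share a promoter, had their highest MIZ-1DPOZ summit 206 bp after the start of Tap1 with 14 fragments and a fold of 6.29. Their promoters held 64 and 66 CpG, and that of Brd2 83. In MIZ-1DPOZ the shares of all protein-coding genes in the same CpG quartile were 62.7% for Tap1 and Psmb9, 35.8% for Psmb8 and 89.0% for Brd2. Tap2, with 9 CpG, had no promoter peak in either list.

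Of 19 other genes of the pathway, 7 had a promoter peak in MIZ-1WT and 11 in MIZ-1DPOZ, with 7 in both. Beside the shares of all protein-coding genes, 30.9%, 48.7% and 26.6%, these counts are not far from the background. Among the 19, H2-Ea is annotated as a polymorphic pseudogene and Ifi30 as a processed transcript, so these genes are not part of that background. Their promoters held more CpG, with a median of 51 against 12 for the members. The remaining chain genes H2-DMb2, H2-Eb2 and H2-Ea, with 9 to 14 CpG, had none in either list, like 8 of the 9 members. Of the 7 factors that bind the class II promoter unit, 4 had a promoter peak in MIZ-1WT (Rfxap, Nfya, Nfyb and Creb1) and 5 in MIZ-1DPOZ, which added Nfyc. The 7 promoters held a median of 100 CpG, and these 5 genes were the ones in the highest CpG quartile. In that quartile 70.8% (MIZ-1WT) and 89.0% (MIZ-1DPOZ) of all protein-coding genes had a promoter peak.

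Nfyb, a subunit of NF-Y, had the summit closest to a start among these factors, 46 bp from it in each list. The tallest of its promoter peaks held 12 fragments in MIZ-1WT, at that summit, and 15 in MIZ-1DPOZ, at a summit 522 bp after the start. Creb1, which joins the X box complex, held 13 fragments 197 bp after its start in MIZ-1WT and 15 fragments 639 bp after it in MIZ-1DPOZ, in peaks that did not overlap. Rfxap, an RFX subunit gene, held 10 and 12 fragments in overlapping peaks, with the MIZ-1WT summit 70 bp after its start. The other RFX subunit genes, Rfx5 and Rfxank, with 56 and 42 CpG, had no promoter peak in either list. Each had 1 peak in its gene body in MIZ-1DPOZ.

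Genes that act on the molecules after synthesis were mixed. Of 7 endosomal genes, which make the proteases and the reductase that prepare peptides and trim the invariant chain, 2 had a promoter peak in MIZ-1WT (Ctsl and Sppl2a) and 4 in MIZ-1DPOZ, which added Ctss and Ctsb. The shares over all protein-coding genes were 30.9% and 48.7%. Ctss, the protease that trims the invariant chain in B cells, had 13 CpG at its promoter, and its MIZ-1DPOZ summit lay 2152 bp before the start with 18 fragments, in a peak whose edge reached the window. Ctsd, Lgmn and Ifi30 had no promoter peak in either list. March1, a ubiquitin ligase that removes class II from the surface, had overlapping promoter peaks 16 and 11 bp from a start with 7 and 11 fragments, and Cd83, which opposes it, had one in MIZ-1DPOZ only, with 14 fragments. Differences between lists at single genes rest on 1 library a genotype and lists of unequal length, and when the lists were held to equal numbers of peaks the MIZ-1DPOZ count over the 19 genes was 5.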

How the data were processed

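MIZ-1 ChIP-seq was performed on B220+ splenocytes per genotype, fixed for 10 minutes in 1% formaldehyde and sequenced paired-end for 50 cycles. By the study's methods the authors used Trimmomatic for trimming, bwa for alignment to mm10 and MACS2 for narrow peaks of each ChIP library under control of the false discovery rate. The submitters' processing notes list Bowtie2 2.2.6 and MACS2 2.1.0 instead, so the aligner is not settled. The q cutoff and how duplicates and multi-mapping reads were handled are not given in the sources used here. For each peak the deposited values are the fold enrichment at the summit, a ratio to the local background, and the −log10 of its p-value and q-value. No read or count table was used, and the 2 input libraries were not analysed separately.

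Pileups and backgrounds were solved from the deposited fold and −log10 p under the MACS2 formulas, with a tolerance of 0.005, for 100% of peaks. On simulated data 100% of 2000 pileups were recovered. The depth ratio is the most frequent background divided by the smallest peak width, MIZ-1DPOZ over MIZ-1WT. Gene intervals and starts came from GENCODE vM21, and bases from the RefSeq copy of GRCm38, whose chromosome lengths those of mm10 match. Promoter CpG was counted over 1001 bp, and a gene took its start with the most. Summits were described within 100 bp to each side, with copies of 50-base windows counted on both strands. The letters for X, Y, E and GC boxes and the MIZ-1 core were searched on both strands, and the X then Y pair on the strand of the gene. Overlap means 1 bp or more. Intervals are at 95% and cover counting error only.

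The sequences of 2 regions are not reported here. The members and lists were chosen with earlier results of these data known. Named were all members, both lists of pathway and neighbouring genes, and any gene whose start was nearest to a member peak. Genes most like the members in their 2 pileups were to be named too, but no member had a promoter peak in both lists, so there were none. Gm20513 and Dexi were nearest to 1 and 2 member peaks. H2-Pb and Gm15821 were named as the starts nearest to summits outside the members. Alternatives were stricter scores, equal list lengths, other windows, assignments and overlaps, and another depth scaling. Scripts ran under Python 3.11.15, with scipy 1.17.1 for intervals, pandas 2.3.3 and numpy 2.4.6 for tables, numba 0.67.0 for compiled loops and matplotlib 3.10.9 for figures.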

Additional observations from a re-analysis of the deposited data

How the results depend on the processing

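Because each genotype had 1 ChIP library, no library could be left out. No paired analysis was possible because the result comes from no test and each genotype has 1 ChIP library. The MIZ-1WT count of members with a promoter peak was 0 under each alternative that kept the basic starts. The single MIZ-1DPOZ promoter peak, that of Ciita, was lost (0 members) within 500 bp of a start, with equal numbers of peaks, and when peaks needed a −log10 q of 5 or a fold of 5. The MIZ-1DPOZ shares over all protein-coding genes were then 44.0%, 25.3%, 33.3% and 31.7%. The MIZ-1WT shares were 27.5%, 30.9%, 9.77% and 17.2%, so equal numbers of peaks put MIZ-1DPOZ below MIZ-1WT. With starts of all annotated transcripts, an alternative chosen after seeing the data, the counts were 4 members for MIZ-1WT, 4 for MIZ-1DPOZ and 3 for both lists. Members with a gene body peak in MIZ-1WT numbered 2 at −log10 q of at least 5 and 3 at a fold of at least 5. In MIZ-1DPOZ they numbered 1 at each of these limits and 0 with equal numbers of peaks. The overlapping pair in H2-Ob fell to 0 in either list when a mutual cover of 50% was required, when summits had to lie within 100 bp, and at −log10 q of at least 5. For the 19 pathway genes, −log10 q of at least 5 left 4 with a promoter peak in MIZ-1WT and 7 in MIZ-1DPOZ, where a fold of at least 5 left 7 and equal numbers of peaks left 5. Scaling by background in place of depth gave a pileup ratio of 0.797 at H2-Ob. The Ciita summit lies 1123 bp from a start, and the H2-Ob summits 117 bp apart with 104 bp of overlap, which sets the losses by distance and cover. At the 7 to 15 fragments of the member peaks, differences between the libraries at single peaks could not be resolved, and enrichment under 5 or 6 fragments was not listed.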
